A study of Mus musculus with 4 samples.

Results

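The family described here was 10 genes, taken by name from the 33696 genes of the deposited tables. These were the cytokines Il6, Il11, Lif and Osm, the receptors Il6ra, Il11ra1, Lifr and Osmr, the shared signaling subunit Il6st, and Socs3, which encodes a feedback inhibitor. Their transcripts were counted by scRNA-Seq in 4 libraries of P3 digits, the digit tips that regenerate in mice, collected after amputation. All mice were female C57BL/6 animals (C57BL/6J in the methods) of 6 to 8 weeks, and each library pooled hindlimb digits 2 to 4 of 10 mice. The methods name only digits 2 and 4 as amputated, so the pools may include digits that were not amputated. In the diet experiment, 1 library came from mice fed chow with SAR131675, an inhibitor of the lymphatic growth factor receptor VEGFR3, at 30 mg/kg, and 1 from mice fed control chow. The labels give 8 days of diet for both, while the methods start the chow before amputation. In the surgery experiment, 1 library came from digits after lymph node removal (LNR) on that extremity, and 1 from sham controls, whose digits were those of the contralateral limb and whose label reads no treatment. The study's text places the collection at 8 days postamputation (DPA) and a legend at 5 DPA. The tissue was cut at the proximal end of the next bone, P2, and digested with collagenase and dispase, so the suspensions held skin, nail, bone, joint and vessel cells.

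The cytokines of this family signal through gp130, the protein of Il6st. IL-6 and IL-11 first bind their own alpha receptors, which are encoded by Il6ra and Il11ra1, and each complex then recruits gp130 pairs. LIF binds a heterodimer of gp130 with LIFR, and oncostatin M binds gp130 with OSMR, in mice mainly with OSMR. JAK kinases on the receptor tails phosphorylate STAT3, and STAT3 induces Socs3, whose protein blocks gp130 signaling. In bone, these cytokines are known for acting on osteoblasts and, through them, on the formation of osteoclasts, and in skin for roles in wound repair.

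The promoters of Il6 and Socs3 are shown because Il6 was, of the 4 cytokines described, the one whose level differed most between the diet libraries and Socs3 is the feedback gene induced by the pathway. The sequences are from RefSeq on build GRCm38.p6, a different build from the GRCm39 named in the submitters' processing notes, and the tables themselves hold no coordinates. Each run gives the 250 bases before the annotated start site, 5' to 3' on the gene's own strand. The Il6 run is chr5:30012864-30013113 on the plus strand, and the Socs3 run is chr11:117969367-117969616 on the minus strand. Capitals mark matches to 3 motifs searched on both strands, namely TTCNNNGAA for STAT factors, TGAGTCA for AP-1 and the NF-kB motif.
Il6: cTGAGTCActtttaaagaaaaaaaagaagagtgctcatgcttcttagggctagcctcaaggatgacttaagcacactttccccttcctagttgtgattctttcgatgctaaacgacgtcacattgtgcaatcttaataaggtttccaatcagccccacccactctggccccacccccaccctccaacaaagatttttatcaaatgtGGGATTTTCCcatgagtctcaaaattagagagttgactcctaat
Socs3: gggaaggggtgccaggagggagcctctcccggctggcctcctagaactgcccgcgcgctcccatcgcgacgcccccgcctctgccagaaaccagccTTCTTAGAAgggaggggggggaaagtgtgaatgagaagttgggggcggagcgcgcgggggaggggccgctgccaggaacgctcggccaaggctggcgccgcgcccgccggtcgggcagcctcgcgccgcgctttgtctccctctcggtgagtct
The Il6 window held an AP-1 match that began 249 bases before the start site and the NF-kB match GGGATTTTCC that began 44 bases before it. The Socs3 window held the STAT match TTCTTAGAA, which began 154 bases before its start site. Windows of 300 bases, reaching 50 bases past the start, were found for 9 of the 10 genes, and none was found for Osm. Il11, Il11ra1 and Lifr had 2 windows each, which gave 12 windows. Of these windows 1 held the STAT motif (Socs3), 3 the AP-1 motif (Il6, Lif and the second window of Il11) and 1 the NF-kB motif (Il6). Among 32851 such windows of all genes, 8.30% held the STAT motif, 5.20% the AP-1 motif and 1.63% the NF-kB motif. A match is a description of the letters and not evidence of binding.

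After filtering, 29076 SAR131675 cells, 24030 control diet cells, 19827 LNR cells and 20669 sham cells were kept, with median depths of 11316, 10712, 5725 and 5851 UMIs per cell. The upper limits on genes and UMIs removed 16.2% and 14.3% of the diet barcodes but 2.41% and 2.28% of the surgery barcodes. The SAR131675 and control diet libraries shared 210 barcodes among kept cells and the LNR and sham libraries 101, while other pairs shared 0 to 2. With 1 library per condition, and with each library labelled as its own batch, treatment, batch and library cannot be told apart, and no test of treatment was possible. Values are therefore UMIs of a gene per 1000000 UMIs of the same cells (CPM), with exact 95% intervals that cover counting error only. They are too narrow as measures of biological error, because UMIs of a gene cluster in few cells. The diet and surgery libraries differed in depth and in the Cell Ranger version of their headers, so levels are set side by side between experiments and not compared. Cell classes were rebuilt from marker genes, so each name below means cells like that type. No osteoclast, monocyte or dendritic class could be named, and 1 unnamed surgery cluster with hair keratin genes held 391 sham but 7 LNR cells.

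Among named classes the level of Il6 was highest in cells of the vessel wall. In the diet experiment, pericyte-like cells led, with 769 CPM in the SAR131675 library and 428 CPM in the control library. They were followed by blood endothelial-like cells with 220 and 149 CPM and by smooth muscle-like cells with 90.2 and 69.5 CPM, and no interval of these 3 classes overlapped that of the next in either library. In the surgery experiment, a mixed mural class with both pericyte and smooth muscle markers had 326 CPM after LNR and 374 CPM in the sham library. A separate smooth muscle class held 330 LNR and 260 sham cells, and the mural compartment, which joins both, stood at 246 and 278 CPM. Blood endothelial-like cells of the surgery libraries held 130 and 116 CPM, and fibroblast-like cells 116 and 115 CPM. These values of the fibroblast and blood endothelial classes overlapped. By share of Il6 UMIs the mesenchymal compartment led in surgery, with 43.6% after LNR and 38.7% in the sham library, against 20.2% and 21.2% in the mural and 10.5% and 9.69% in the endothelial compartment. Cluster 1 of the fibroblast class, led by C3, alone held 18.9% of the Il6 UMIs of both surgery libraries, at 193 and 171 CPM. For the diet libraries, the mural compartment held 37.8% and 29.9%, the endothelial 26.3% and 24.9% and the mesenchymal 14.8% and 23.2% of Il6 UMIs. Fibroblast-like cells of the diet experiment held only 12.3 and 13.6 CPM of Il6. Il6 was low in the epidermis, with 0.633 to 0.984 CPM in basal keratinocyte-like cells across the 4 libraries. LEC-like cells, the lymphatic endothelium, had 7 Il6 UMIs in the SAR131675 library, 0 in the control library, 10 in LNR and 5 in sham. The 0 was counted over 259 cells, and 3 UMIs would have been 1.74 CPM.

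An unnamed cluster in each experiment, led by both endothelial and pericyte genes (Fabp4, Flt1, Rgs5 and Rgs16 among them), was also rich in Il6. In the diet experiment it had 722 CPM over 75 SAR131675 cells and 459 CPM over 64 control cells. In surgery it had 516 CPM over 149 LNR cells and 485 CPM over 171 sham cells, above every named class.

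**Figure D1:**
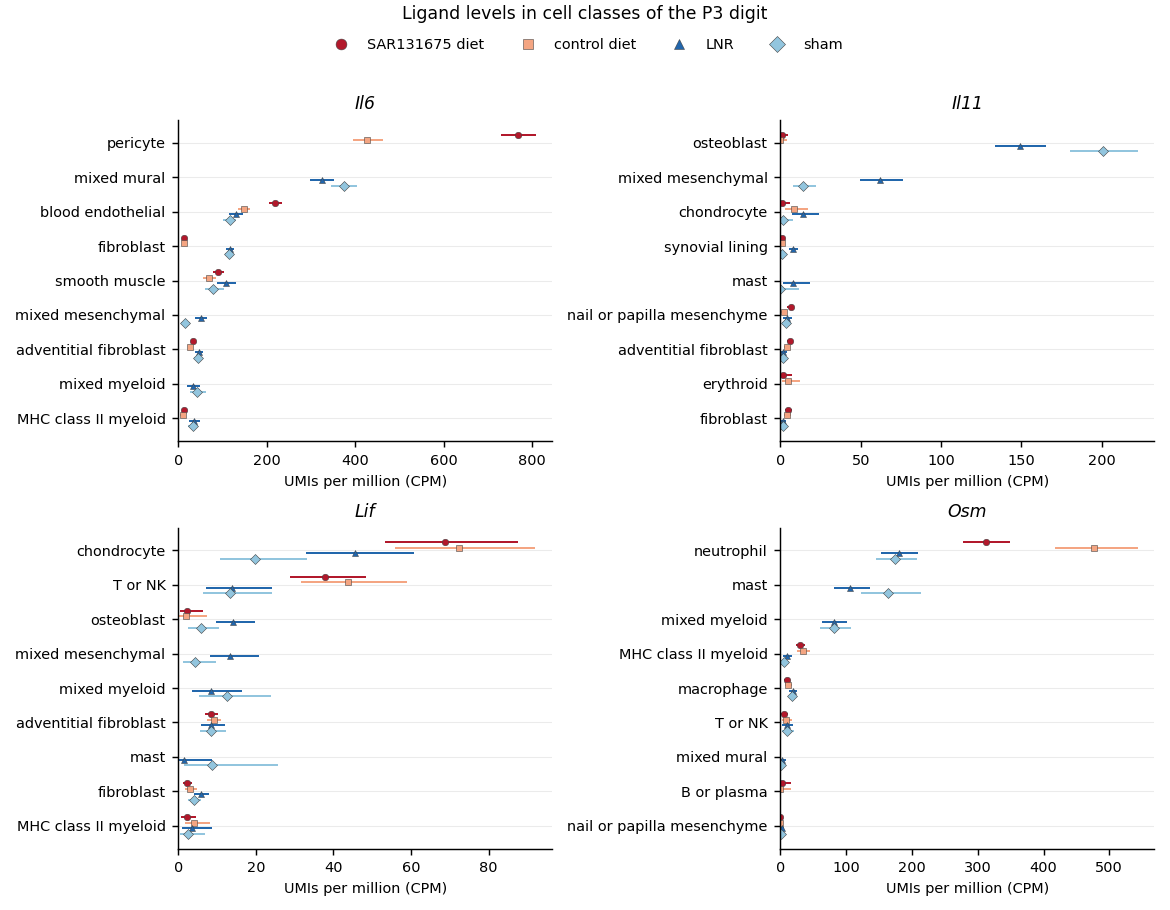
CPM of Il6, Il11, Lif and Osm (x axis) in the 9 classes with the highest value of each gene (y axis); points are libraries and bars are exact 95% Poisson intervals. Il6 was highest in pericyte-like cells (769 and 428 CPM), Il11 in the osteoblast class of the surgery libraries (149 and 201 CPM, with 84.8% and 91.1% of its UMIs in 10 and 9 cells low in osteoblast markers), Lif in chondrocyte-like cells and Osm in neutrophil-like cells.

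In the diet libraries much of the Il6 count of pericyte-like cells came from few strongly positive cells. An Il6 UMI was found in 47.1% of 331 SAR131675 pericyte-like cells (exact binomial interval 41.6% to 52.7%, median depth 6759 UMIs) and in 36.4% of 250 control cells (30.4% to 42.7%, median depth 6141 UMIs). In basal keratinocyte-like cells of the same libraries, which served as a background for free RNA, the shares were 0.597% and 0.586% at median depths of 11993 and 11364 UMIs. Thinned to 1500 UMIs a cell, with 33 and 26 shallower pericyte-like cells left out, the shares were 31.2% (25.99% to 36.8%) and 25.4% (19.9% to 31.7%), so the intervals overlapped. Cells with 10 or more Il6 UMIs numbered 62 among SAR131675 pericyte-like cells and held 83.9% of the Il6 UMIs of the class (82.1% to 85.6%). In the control library 23 such cells held 62.0% (58.3% to 65.7%). In blood endothelial-like cells they held 65.4% of Il6 UMIs in SAR131675 and 49.0% in control. In the shallower surgery libraries such cells held 33.0% and 30.8% in the mixed mural class and 14.5% and 14.1% in blood endothelial-like cells of LNR and sham. A share held by cells of 10 or more UMIs depends on depth, so it is not compared between experiments. Over all kept cells there were 144 such cells in SAR131675, 71 in control, 66 in LNR and 50 in sham, and they held 60.05%, 44.2%, 23.1% and 20.4% of Il6 UMIs.

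Il11, a cytokine of stromal and bone cells, had few UMIs, and in the surgery libraries they lay mostly in a few cells. In the diet libraries the keratinocyte compartment held 266 of 547 Il11 UMIs in SAR131675 and 209 of 362 in control, at 1.05 CPM in each. Osteoblast-like cells of the surgery experiment held 149 CPM in LNR (134 to 165) and 201 CPM in sham (181 to 222), which were 387 of 720 and 384 of 553 Il11 UMIs. The same class had 2 Il11 UMIs in 187 SAR131675 cells and 0 in 111 control cells. Set against 3 of 111 cells, that 0 stands for a share of 2.70% with a UMI, and its exact interval reached 3.27%. Neither value limits the share of cells that express the gene. In the osteoblast class, 10 LNR cells with 10 or more UMIs held 84.8% of the Il11 UMIs and 9 sham cells held 91.1%. The highest sham cell alone held 196 UMIs and the highest LNR cell 101. These were counts in single barcodes, and the level of the class rests on them.

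The Il11-high barcodes of the osteoblast class had less of several of its markers. Bglap, which encodes osteocalcin, was at 0 UMIs in the 10 LNR and in the 9 sham Il11-high cells, where 3 UMIs would have been 17.2 and 24.5 CPM, while cells of the class with no Il11 UMI had 2779 and 3827 CPM. Ibsp, the bone sialoprotein gene, stood at 1009 and 228 CPM in Il11-high cells and at 5872 and 4981 CPM in cells without Il11. Alpl, the alkaline phosphatase gene, stood at 63.0 and 196 CPM against 691 and 588 CPM, and Runx2, a factor of early osteoblasts, at 80.2 and 114 CPM against 224 and 241 CPM. Sp7, another such factor, had 4 and 2 UMIs, or 22.9 and 16.3 CPM, against 61.5 CPM in cells without Il11 of either library. These values go against the class name for the Il11-high cells. Col1a1, a collagen gene of all fibroblastic and bone cells, was at 9921 and 13476 CPM against 8748 and 10427 CPM. Lif stood at 80.2 and 32.6 CPM in the Il11-high cells, from 14 and 4 UMIs, and at 5.26 and 3.73 CPM in those without Il11. Il11ra1 showed the opposite order, with 2 and 0 UMIs in Il11-high cells against 222 and 230 CPM in those without Il11. The Il11-high cells were deeper, with median depths of 17320 and 13791 UMIs against 4761 and 4859. The groups of cells were chosen by their Il11 counts and are described without a test.

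**Figure D2:**
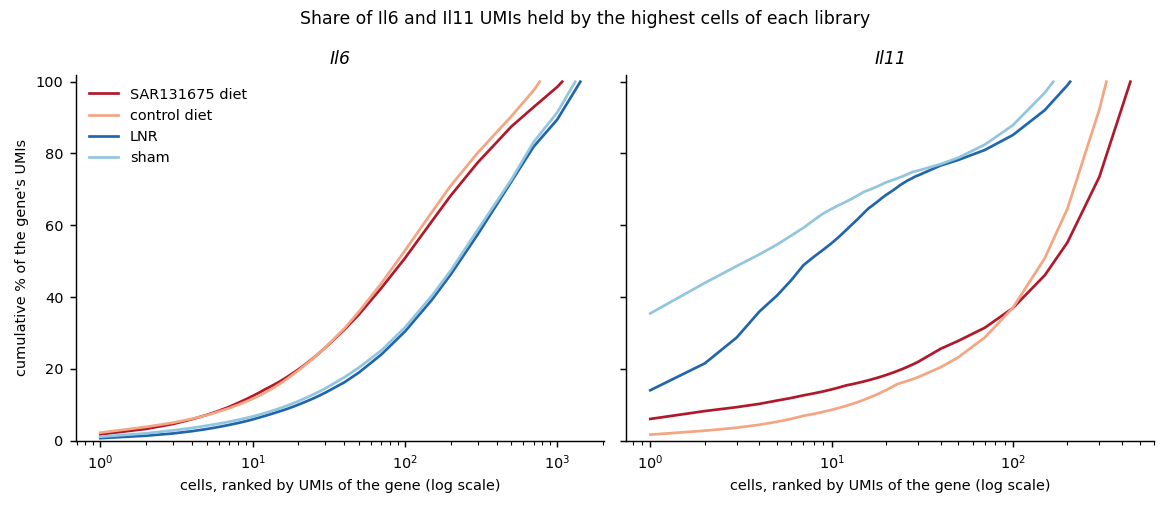
Cumulative share of all Il6 or Il11 UMIs of a library (y axis, percent) held by its highest cells, ranked by their UMIs of that gene (x axis, log scale); each line is 1 library. The Il11 curves of LNR and sham start far higher than those of the diet libraries, since 101 of 720 and 196 of 553 UMIs lay in 1 cell.

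Lif was highest in chondrocyte-like cells of the 4 libraries. There it stood at 68.8 CPM in SAR131675 (53.4 to 87.2), 72.4 CPM in control (56.2 to 91.8), 45.5 CPM in LNR (33.3 to 60.6) and 19.9 CPM in sham (11.1 to 32.8). The sham value rests on 15 UMIs in 117 cells. T or NK-like cells held 37.8, 43.8, 13.9 and 13.4 CPM in the same order. They came next except in LNR, where osteoblast-like cells held 14.2 CPM of Lif from 37 UMIs. Of these UMIs, 14 lay in the 10 Il11-high cells and 13 in cells with 1 to 9 Il11 UMIs, while cells without Il11 held 5.26 CPM. Adventitial fibroblast-like cells stood at 8.48 and 9.16 CPM in the diet libraries and at 8.57 and 8.52 CPM in the surgery libraries. Basal keratinocyte-like cells held 0.437 to 1.35 CPM of Lif.

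Osm was a transcript of myeloid cells. Neutrophil-like cells led in each library, with 312 CPM in SAR131675 (279 to 348), 477 CPM in control (419 to 542), 180 CPM after LNR (155 to 207) and 175 CPM after sham (148 to 206). An Osm UMI was found in 44.7%, 55.3%, 36.7% and 29.0% of these cells, whose median depths were 2718, 2513, 1286 and 1301 UMIs. Basal keratinocyte-like cells, far deeper, held 2, 1, 1 and 0 Osm UMIs in all. Mast-like cells, named only in the surgery experiment, had 106 and 163 CPM in LNR and sham. Macrophage-like cells held 9.75 to 18.9 CPM, and cells led by MHC class II genes 30.2 and 34.6 CPM in the diet libraries and 10.1 and 5.91 CPM in the surgery libraries.

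Il6ra, the IL-6 alpha receptor, was high in myeloid cells and in part of the basal epidermis. The MHC class II myeloid class held 187, 186, 106 and 106 CPM, Langerhans-like cells 173, 173, 109 and 128 CPM, and macrophage-like cells 140, 164, 142 and 151 CPM in SAR131675, control, LNR and sham. Basal keratinocyte-like cells had 102.2 and 140 CPM in the diet libraries and 46.8 and 49.5 CPM in the surgery libraries. Within that class of the diet experiment, cluster 5, led by Smoc2, reached 173 CPM in SAR131675 and 230.1 CPM in control, the highest of the diet clusters over both libraries together. Because basal keratinocyte-like cells were numerous, they held 10976 of 28255 Il6ra UMIs in SAR131675 and 11047 of 29200 in control. Osteoblast-like cells had among the lowest values, 5.91 to 10.4 CPM. Blood endothelial-like cells, which were high in Il6, held 21.2 to 24.5 CPM of Il6ra.

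Il11ra1, the IL-11 alpha receptor, was highest in mesenchymal classes, though the highest diet cluster lay in the basal keratinocyte class. That cluster, cluster 45, led by Slc7a8, held 494 CPM in SAR131675 and 402 CPM in control, while the basal class as a whole held 68.2 and 57.6 CPM. Fibroblast-like cells held 402 and 343 CPM in the diet libraries and 668 and 689 CPM in the surgery libraries. Adventitial fibroblast-like cells held 375, 309, 239 and 252 CPM in SAR131675, control, LNR and sham, and nail or papilla mesenchyme 252, 200, 309 and 312 CPM, so their order differed between the experiments. Osteoblast-like cells held 220, 167, 179 and 200 CPM. Neutrophil-like cells held 29.6 to 45.1 CPM. Il11ra2, a near-identical copy, had at most 4 UMIs in a library, and reads that fit both copies make the Il11ra1 counts uncertain.

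Lifr was led by osteoblast-like cells in the diet libraries, with 684 CPM (645 to 724) and 720 CPM (668 to 774). In the surgery libraries osteoblast-like cells held 173 and 198 CPM and blood endothelial-like cells 209 and 216 CPM. Cells of that osteoblast class without an Il11 UMI held 207 and 230 CPM, and those with 10 or more 57.3 and 40.8 CPM. Macrophage-like cells had 205, 231, 155 and 153 CPM of Lifr. With means over cells, osteoblast-like cells led Lifr in the surgery libraries, at 225 and 275 CPM. Osmr, the oncostatin M receptor gene, was high in the vessel wall. With UMIs summed per class it was, like Lifr, led by blood endothelial-like cells in the surgery libraries. Pericyte-like cells held 374 and 520 CPM, blood endothelial-like cells 278, 348, 87.1 and 114 CPM, smooth muscle-like cells 208, 225, 66.8 and 65.3 CPM, and LEC-like cells 145, 151, 64.6 and 84.9 CPM. Osmr was low in macrophage-like cells, at 8.35 to 12.6 CPM. With means over cells, the mixed mural class led Osmr in the surgery libraries, at 99.6 and 128 CPM.

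Il6st, which every cytokine of the family signals through, was detected in all classes, with a clear peak in endothelium. Blood endothelial-like cells held 923 CPM in SAR131675, 1126 CPM in control, 682 CPM after LNR and 710 CPM after sham, and 73.8% to 88.6% of them had an Il6st UMI. Pericyte-like cells held 431 and 501 CPM, LEC-like cells 346, 364, 408 and 358 CPM, and adventitial fibroblast-like cells 305, 316, 254 and 253 CPM. Basal keratinocyte-like cells held 44.5, 53.0, 24.1 and 24.0 CPM, and T or NK-like cells 52.5, 58.4, 33.2 and 48.6 CPM.

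**Figure D3:**
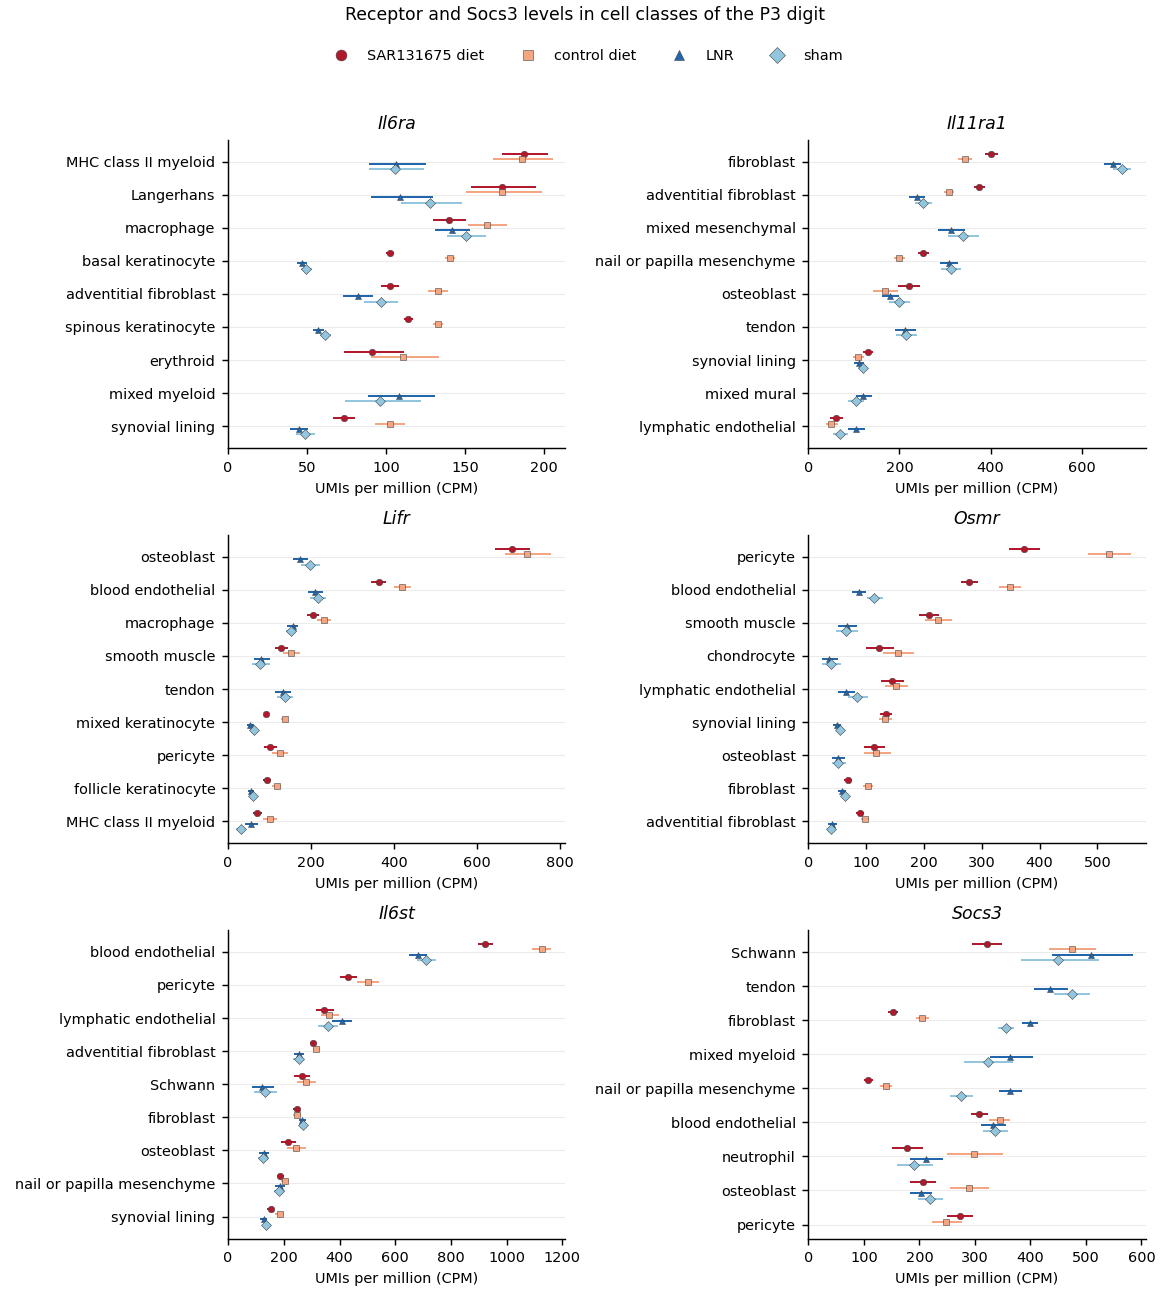
CPM of Il6ra, Il11ra1, Lifr, Osmr, Il6st and Socs3 (x axis) in the 9 classes with the highest value of each gene (y axis); points are libraries and bars are exact 95% Poisson intervals. Il6st peaked in blood endothelial-like cells (682 to 1126 CPM), Il11ra1 in fibroblast-like cells (343 to 689 CPM) and Lifr in osteoblast-like cells of the diet libraries (684 and 720 CPM).

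Orders of classes were often not resolved. Of 26 neighboring pairs of classes in the diet experiment, the ranges of the library values overlapped for 12 pairs (Il6st) to 24 pairs (Il11). Of 27 pairs in the surgery experiment, they overlapped for 14 (Il6st) to 25 (Il11). At the top, Schwann-like and blood endothelial-like cells overlapped for Socs3 in the diet experiment, fibroblast-like and adventitial fibroblast-like cells for Il11ra1, and the 4 highest classes for Il11.

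Socs3, the feedback gene, was highest, among named classes, in Schwann-like cells of the diet libraries, with blood endothelial-like cells next, and in Schwann-like and tendon-like cells of the surgery libraries. It was low in the suprabasal epidermis. Schwann-like cells held 321 CPM in SAR131675, 475 CPM in control, 508 CPM after LNR and 450 CPM after sham. In the diet experiment cluster 54 held 150 of 320 SAR131675 and 109 of 205 control Schwann-like cells. Its Socs3 levels were 354 and 513 CPM. Tendon-like cells, named only in the surgery experiment, had 436 and 474 CPM. Blood endothelial-like cells stood at 308 and 344 CPM in the diet libraries and at 333 and 337 CPM in the surgery libraries. Fibroblast-like cells held 153, 205, 399 and 356 CPM, and nail or papilla mesenchyme 107, 140, 364 and 275 CPM. Basal keratinocyte-like cells had 23.9, 26.1, 62.0 and 51.9 CPM, and spinous keratinocyte-like cells 8.02, 8.67, 17.7 and 15.4 CPM.

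Immediate early genes are known to rise while tissue is digested, and a list of 12 such genes moved with Socs3 across classes. Junb is in this list and also in the list of STAT3 target genes described below. Over 54 class and library values of the diet experiment Pearson's r between Socs3 and the summed list was 0.83, and over 56 values of the surgery experiment it was 0.77, on log2(CPM + 1) values that share libraries and depth. For Il6 r was 0.62 and 0.61, for Il6st 0.53 and 0.63, for Lifr 0.40 and 0.54 and for Il11ra1 0.37 and 0.57. The other genes had lower values, with 0.28 and 0.46 for Osmr, 0.31 and 0.37 for Osm, 0.15 and 0.32 for Lif, 0.12 and 0.18 for Il11 and 0.06 and 0.25 for Il6ra. The summed level of the list over all kept cells was 4196 and 4193 CPM in SAR131675 and control and 6122 and 5377 CPM in LNR and sham. Mast-like cells, the surgery class with the most of the list, at 18552 and 20131 CPM after LNR and in the sham library, went against this, with only 45.6 and 67.1 CPM of Socs3. The part of the digestion response in the levels of these genes was not tested.

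**Figure D4:**
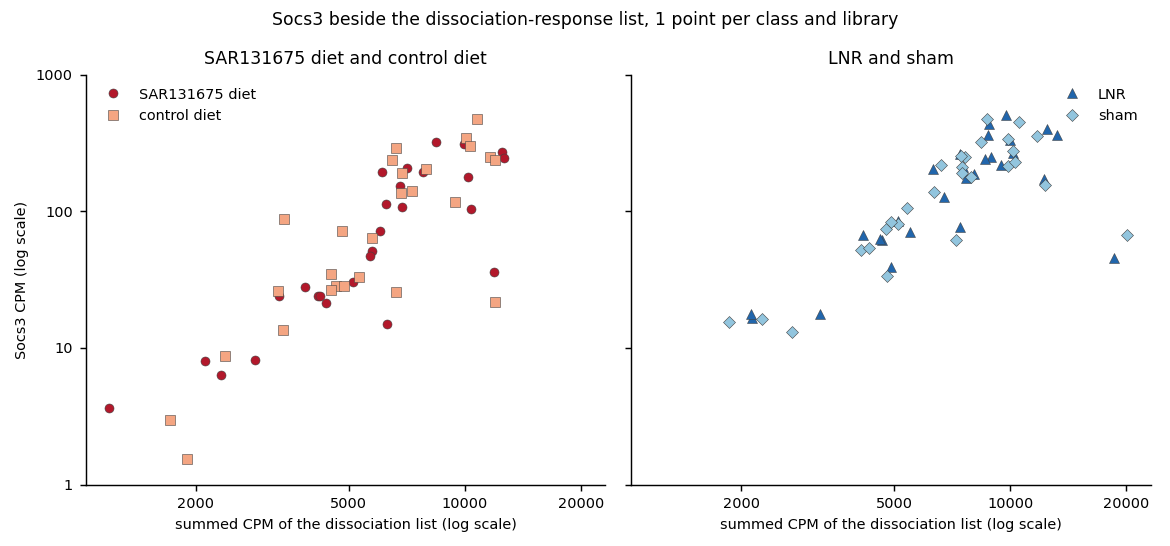
CPM of Socs3 (y axis, log scale) against the summed CPM of the dissociation list (x axis, log scale), with 1 point per named class and library, diet libraries on the left and surgery libraries on the right. Across classes Socs3 was correlated with the list (r = 0.83 and 0.77 on log2 values), with mast-like cells of the surgery libraries, at 18552 and 20131 CPM of the list and 45.6 and 67.1 CPM of Socs3, as an exception.

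The comparison of SAR131675 with control chow asked whether VEGFR3 inhibition changed the digit, and here the family was compared between the libraries. Over all kept cells Il6 stood at 15.7 CPM in SAR131675 and 10.4 CPM in control, from 5339 and 2772 UMIs. The log2 ratio was 0.59 (interval 0.53 to 0.66), or 1.51-fold, just past the 1.5-fold difference used as a call. Il6 was the only 1 of the 10 genes past that fold. Of all 20601 genes with at least 50 UMIs over both libraries, 6.79% were past it, so 1 of 10 was near the background. The call was lost, at log2 ratios of 0.54 to 0.57, when cells were weighted equally, thinned to 1500 UMIs or cleared of likely doublets. Il6ra was lower in SAR131675, at 83.2 CPM against 109.9 CPM (log2 ratio -0.40), and Il11ra1 higher, at 81.4 against 67.3 CPM (0.27). Lifr stood at 58.6 against 67.6 CPM, Osmr at 54.1 against 60.6 CPM, Il6st at 96.1 against 107 CPM and Socs3 at 50.04 against 55.8 CPM, with log2 ratios of -0.21, -0.16, -0.16 and -0.16. Il11 stood at 1.61 against 1.36 CPM (log2 ratio 0.24). Lif was at 2.11 against 2.19 CPM and Osm at 1.55 against 1.48 CPM, and both intervals included 0. With classes weighted equally in both libraries the Osm ratio was -0.57. The median log2 ratio of the 10 genes was -0.10 beside -0.01 for all genes.

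Il6 was past the fold in the endothelial, mural and myeloid compartments. Leaving out the cells with 10 or more Il6 UMIs, which were chosen by the gene's own count and numbered 144 in SAR131675 and 71 in control, gave a log2 ratio of 0.11 over all cells. In pericyte-like cells Il6 was at 769 CPM (733 to 806) against 428 CPM (396 to 461), a log2 ratio of 0.85 (0.72 to 0.98), where 8.45% of genes were past 1.5-fold. In the mural compartment, which joins pericyte-like and smooth muscle-like cells, it was at 377 against 230 CPM, a log2 ratio of 0.71 (0.59 to 0.83), and 1 of 7 genes of the family with enough UMIs was past the fold beside 6.11% of all genes. In the endothelial compartment it was at 176 against 109 CPM (0.69, 0.56 to 0.83), again 1 of 7 genes beside 6.17%. The endothelial call was not met within the blood endothelial class, which held 1395 of the 1402 SAR131675 and all 690 control Il6 UMIs of the compartment, at 220 against 149 CPM (0.56, 0.43 to 0.69). It was met only with LEC-like cells pooled in, which had 7 and 0 Il6 UMIs. Those cells held 1624747 of the 7971282 total UMIs of the compartment in SAR131675 and 1723925 of 6345288 in control. The part of this share in the endothelial call was not tested. In the myeloid compartment Il6 had 93 and 39 UMIs, or 7.51 against 4.54 CPM (0.73, 0.17 to 1.30), and 1 of 8 genes was past the fold beside 6.74%. No single myeloid class met this call, since MHC class II myeloid cells had 14.1 against 10.2 CPM (0.48, -0.26 to 1.27) and neutrophil-like, macrophage-like and Langerhans-like cells had too few Il6 UMIs, at 32 and 5, 8 and 9, and 0 and 3. In the mesenchymal compartment Il6 stood at 16.8 against 17.1 CPM (-0.02, -0.17 to 0.13). There Il11 was past the fold, at 4.83 against 3.19 CPM (0.60, 0.27 to 0.93), as 1 of 9 genes beside 6.48%. That call rested on 1 SAR131675 cell with 33 of 227 UMIs, and with the highest cell of each library left out it was lost, at 4.13 against 3.03 CPM (0.45, 0.10 to 0.79). In the keratinocyte compartment 0 of 9 genes were past the fold, beside 8.57% of all genes.

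At the level of classes, of 173 gene and class values with enough UMIs, 12 were past the fold upward and 16 downward, beside 8.79% of all gene and class values in either direction (5.01% to 29.0% by class). Il6 in nail or papilla mesenchyme was lower in SAR131675, at 5.93 against 12.8 CPM (log2 ratio -1.11, -1.58 to -0.64), where 8.58% of genes were past the fold. Lifr in fibroblast-like cells was lower as well, at 44.6 against 97.7 CPM (-1.13, -1.30 to -0.97), where 6.85% were. That Lifr difference lay in cluster 11, led by Angptl7 and Chad, at 55.2 against 125.7 CPM, and not in cluster 39, at 23.8 against 22.3 CPM. Osm in neutrophil-like cells stood at 312 against 477 CPM (-0.61, -0.86 to -0.37), in a class where 29.0% of genes were past the fold. Il11 in nail or papilla mesenchyme stood at 6.31 against 2.04 CPM. There 1 cell held 33 of 67 SAR131675 UMIs, and no ratio without it was taken.

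The other upward values of the diet comparison lay in 6 classes, mostly of small counts. Lifr in T or NK-like cells stood at 27.1 against 11.7 CPM (1.22, 0.28 to 2.27), from 46 and 12 UMIs, beside Socs3 at 51.3 against 33.1 CPM (0.63) and Osmr at 21.8 against 12.7 CPM (0.79), where 12.8% of genes were past the fold. In neutrophil-like cells Osmr stood at 47.0 against 23.7 CPM (0.99, 0.06 to 2.03), from 50 and 12 UMIs, and Il11ra1 at 45.1 against 29.6 CPM (0.61). Il11 in adventitial fibroblast-like cells stood at 6.08 against 3.905 CPM (0.64, 0.15 to 1.13), where 5.01% were. The rest were Il6ra in sweat gland-like cells (0.95), Il11ra1 in granular keratinocyte-like cells (0.80) and Socs3 and Il11ra1 in Langerhans-like cells (0.72 and 0.85). The intervals of Osmr in T or NK-like cells and of Il11ra1 in neutrophil-like and Langerhans-like cells included 0. The other downward values ran from -1.16 for Il6st in B or plasma-like cells to -0.60 for Osmr in sebaceous-like cells. They were Il6ra in 3 classes of hair follicle or mixed keratinocytes, Lifr in 3 classes, Osmr in 3, Socs3 in 3 and Il6st in 1.

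**Figure D5:**
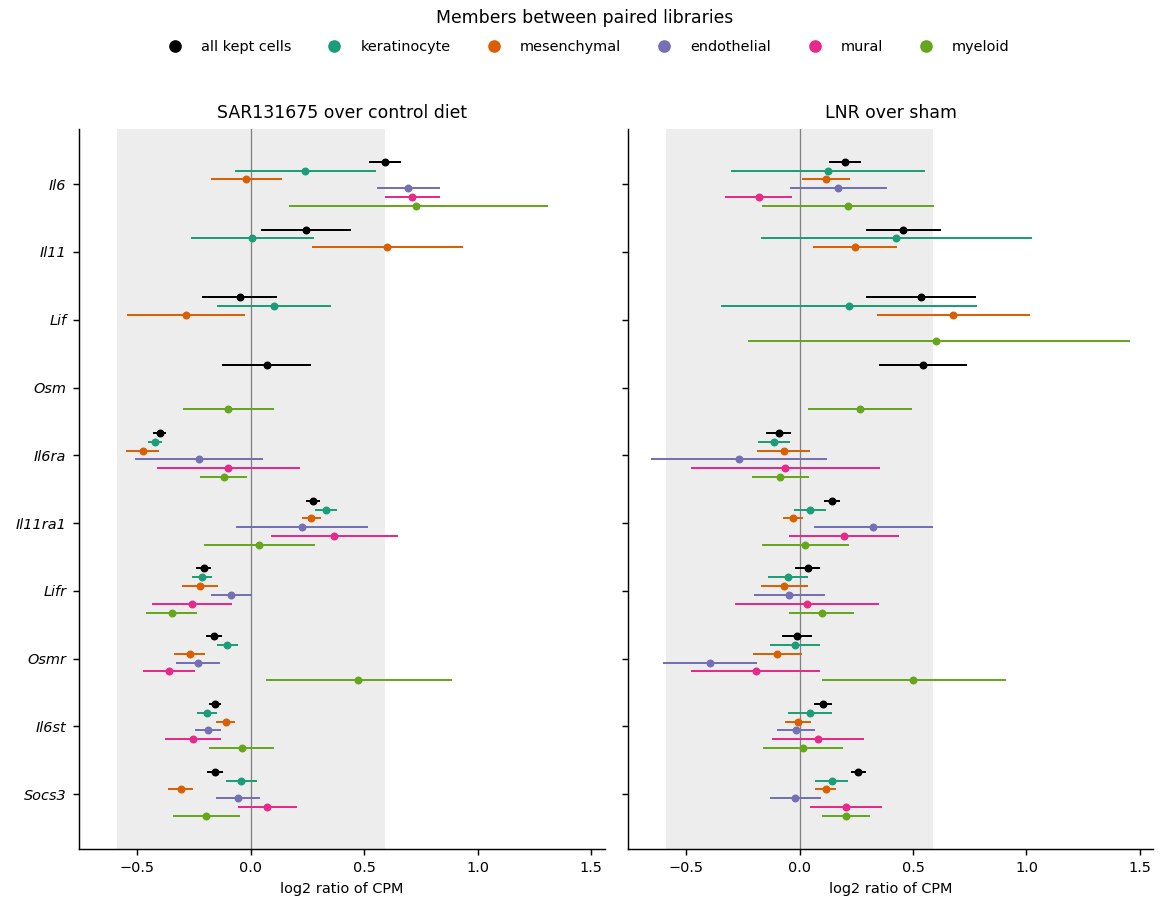
Log2 ratio of CPM (x axis) of each of the 10 genes (y axis) for SAR131675 over control diet (left) and LNR over sham (right), over all kept cells and in 5 compartments; bars are exact 95% intervals for counting error, and gray marks ratios within 1.5-fold. On the left, Il6 lay past the gray band in all kept cells (0.59), endothelial (0.69), mural (0.71) and myeloid cells (0.73), and on the right no gene did over all kept cells.

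The comparison of LNR with sham asked the same of the removal of lymph nodes. Over all kept cells 0 of 10 genes were past 1.5-fold, beside 3.68% of 17394 genes. Osm held 3.84 CPM after LNR and 2.63 CPM after sham (log2 ratio 0.54, 0.36 to 0.74), Lif at 2.45 against 1.69 CPM (0.53, 0.30 to 0.77) and Il11 at 5.04 against 3.67 CPM (0.46, 0.30 to 0.62). Socs3 stood at 136 against 114 CPM (0.26, 0.23 to 0.29), beside the higher level of the dissociation list in LNR given above. Il6 stood at 27.8 against 24.2 CPM (0.20), Il11ra1 at 119 against 108 CPM (0.14) and Il6st at 92.9 against 86.5 CPM (0.10). Il6ra, Lifr and Osmr had ratios of -0.09, 0.04 and -0.01. The median over the 10 genes was 0.17 beside 0.02 for all genes. With classes weighted equally in both libraries, the Osm ratio was -0.15, so its direction depended on how classes were weighted. Osm stood at 106 against 163 CPM in mast-like cells and at 180 against 175 CPM in neutrophil-like cells. In the myeloid compartment it stood at 39.9 against 33.1 CPM. The part of each class in the change of direction was not tested. With the highest Il11 cell of each library left out, the Il11 ratio was 0.87, and with classes weighted equally it was 0.16. The Lif ratio was 0.15 with means over cells and 0.04 with cells thinned to 1500 UMIs, both below the interval given above.

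Within compartments, Lif was the gene past the fold. It stood at 6.70 against 4.196 CPM in mesenchymal cells (log2 ratio 0.68, 0.35 to 1.01), as 1 of 9 genes beside 2.71% of all genes. Il11 was past the fold there only with the highest cell of each library left out, at 15.5 against 8.85 CPM (0.81, 0.59 to 1.04). In myeloid cells Lif stood at 3.63 against 2.40 CPM, from 35 and 21 UMIs (0.60, -0.22 to 1.45), as 1 of 9 genes beside 4.55%, and that interval included 0. In the keratinocyte compartment 0 of 9 genes were past the fold beside 2.94%, in the endothelial compartment 0 of 7 beside 4.21% and in the mural compartment 0 of 7 beside 5.64%. Il6 in mural cells stood at 246 against 278 CPM (-0.18), and in endothelial cells at 91.7 against 81.5 CPM (0.17). At the level of classes, of 173 gene and class values with enough UMIs, 10 were past the fold upward and 6 downward, beside 5.63% of all gene and class values in either direction (2.49% to 13.02% by class). Lif in chondrocyte-like cells was at 45.5 against 19.9 CPM, with a log2 ratio of 1.19 (0.33 to 2.14) from 46 and 15 UMIs, where 9.38% of genes were past the fold. The mixed mesenchymal class showed Il6 at 50.6 against 15.4 CPM (1.72) and Socs3 at 187 against 106 CPM (0.82), where 7.81% were. The dissociation list stood at 8039 against 5395 CPM in the same class, and its part in these values was not tested. Il11 of that class stood at 62.2 against 13.9 CPM (2.16), and 1 LNR cell held 53.6% of its LNR UMIs. No ratio without that cell was taken. In synovial lining-like cells Il11 stood at 7.75 against 1.11 CPM, where 1 LNR cell held 32 of 55 UMIs. Of the 6 downward values, 3 had intervals that excluded 0. These were Il6 in tendon-like cells at 18.7 against 34.0 CPM (-0.86, with 5.21% of genes past the fold), Il6ra in T or NK-like cells at 26.8 against 49.8 CPM (-0.89, with 9.66%) and Osm in mast-like cells at 106 against 163 CPM (-0.62, with 12.4%). The other downward values were Il6ra in LEC-like cells (-0.59), Lifr in the mixed myeloid class (-0.60) and Il6st in neutrophil-like cells (-0.61). The remaining upward values were Lifr in the MHC class II myeloid class (0.87), Il11ra1 in Schwann-like cells (0.93) and in the mixed myeloid class (0.74), and Il6 in synovial lining-like (0.63) and macrophage-like cells (0.76), of which the mixed myeloid and macrophage intervals included 0. Osmr in myeloid cells had ratios of 0.50 in surgery and 0.47 in diet, both inside the fold.

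The rest of the pathway was described from lists of genes, whose counts stand beside the 6.79% of all genes past the fold in diet and the 3.68% in surgery and whose medians stand beside -0.01 and 0.02 for all genes. Of 11 other ligands and receptors of gp130 and related cytokines, 9 had enough UMIs in the diet experiment. Of these 1 was past the fold upward and 0 downward (median log2 ratio 0.22). That gene was Cntf, a neurotrophic cytokine, at 2.13 against 1.41 CPM (0.60, 0.42 to 0.78), with 187, 139, 165 and 176 CPM in Schwann-like cells of SAR131675, control, LNR and sham. In surgery 8 of the 11 had enough UMIs and 0 were past the fold (median 0.14). Of 8 genes of the JAK-STAT relay, 0 were past the fold in either experiment (medians -0.12 and 0.03). Jak1, Jak2, Tyk2 and Stat3, the kinases and the factor downstream of gp130, had diet ratios of -0.15, -0.12, 0.09 and -0.19 and surgery ratios of -0.01, 0.10, 0.00 and 0.04. Stat3 stood at 714, 778, 175 and 190 CPM in blood endothelial-like cells and Jak1 at 627, 632, 258 and 254 CPM. Of 11 negative regulators 0 were past the fold in either experiment, with medians of 0.00 and -0.01.

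The remaining ligands and receptors of the list had their own classes. Clcf1, a cytokine gene, had log2 ratios of 0.02 in diet and 0.34 in surgery. Ctf1, the cardiotrophin 1 gene, had 0.22 and 0.00, and Cntfr, the receptor of Cntf, -0.21 and 0.16. In nail or papilla mesenchyme Cntfr stood at 33.1 and 90.8 CPM in SAR131675 and control and at 63.7 and 60.4 CPM in LNR and sham. Il31ra, which pairs with OSMR for IL-31, stood at 38.1, 48.1, 13.5 and 10.97 CPM in basal keratinocyte-like cells. Il27ra, the IL-27 receptor gene, was highest in T or NK-like cells at 23.6, 36.0, 10.7 and 6.07 CPM. Their ratios over all kept cells were -0.20 and 0.13 for Il31ra and 0.32 and 0.51 for Il27ra.

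Of 15 STAT3 target genes, 1 was past the fold in the diet experiment and 3 in the surgery experiment, all upward, beside 3.35% and 2.40% of all genes past it upward, with medians of -0.09 and 0.15. Saa3, an acute phase gene, had 509 against 88 UMIs in diet (log2 ratio 2.18) and at 10.6 against 2.55 CPM in surgery (2.06). Those counts were concentrated, since 1 SAR131675 cell held 32.6% and 1 LNR cell 25.0% of the library's Saa3 UMIs. Timp1, a metalloproteinase inhibitor, stood at 113 against 72.0 CPM in LNR and sham (0.65), and Hp, the haptoglobin gene, at 9.43 against 5.94 CPM (0.67). Osteoblast-like cells held 53.7% and 49.8% of Timp1 UMIs, at 3341 against 2820 CPM over 351 and 268 cells. Neutrophil-like cells held 36.6% and 41.7% of Hp UMIs, at 464 against 453 CPM over 305 and 255 cells. Hp was higher after LNR in osteoblast-like cells, at 56.2 against 20.4 CPM, and in synovial lining-like cells, at 36.9 against 24.1 CPM. The part of class mix in these ratios was not tested. Of 12 dissociation genes, 0 were past the fold in either experiment (medians -0.01 and 0.21). Of 8 cell division genes, 1 was past the fold in the diet experiment, Ube2c at 55.1 against 35.7 CPM (0.63, median of the list 0.40), and 0 in the surgery experiment (median -0.15).

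The genes whose levels over classes were most like those of the family are given as a description, from Pearson's r over 110 class and library values that share libraries and depth, among 12950 genes. For Il6 these were Adamts4 (0.82), Mustn1 (0.80) and Cxcl1 (0.80), and for Il11 they were Mmp3 (0.62), Steap1 (0.61) and Cxcl5 (0.60). For Lif they were Omd (0.59), Stc2 (0.56) and AW112010 (0.55), and for Osm Lilrb4b (0.93), Lilrb4a (0.93) and Gpr65 (0.90). Among the receptors, Il6ra was most like Wnk1, Diaph1 and Galnt7 (0.68 to 0.69), Il11ra1 like Nbl1, P3h3 and Nenf (0.85 to 0.87), Lifr like Cemip2, Nuak1 and Mertk (0.71 to 0.74), and Osmr like Cdc42bpa, Parva and Dlc1 (0.83 to 0.84). Il6st was most like Grb10, Ldb2 and Sptbn1 (0.86 to 0.87). Socs3 was most like Junb, Selenom and Fos (0.83 to 0.86), of which Junb and Fos are immediate early genes.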

How the data were processed

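The data were 3' scRNA-Seq of 4 libraries, 1 per condition. The files hold whole UMI counts for each gene in each barcode, not normalized, as deposited by the authors. File headers name Cell Ranger 6.1.2 for LNR and sham and 8.0.1 for the diet libraries, while the submitters' processing notes name 6.1.2 and GRCm39 for all 4. Totals were 168507188 (LNR), 175998346 (sham), 585284877 (SAR131675) and 448276501 (control diet) UMIs.

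Barcodes were kept with 200 to 5500 genes, at most 30000 UMIs and at most 10% mitochondrial UMIs. Experiments were clustered apart, without the genes described here or the genes of the pathway lists, on 2000 variable genes, 30 principal components and 20 neighbors with Leiden clustering at resolution 2. Clusters were named from marker lists by a rule set after their leading genes were seen, and classes under 50 cells in a library gave no value there. Doublets were left in. UMIs were summed per class and library. Ratios were taken for genes with at least 50 UMIs over both libraries and called past 1.5-fold. Shares have exact Clopper-Pearson intervals, levels exact Poisson intervals and ratios exact conditional intervals, all at 95% and for counting error only. A count of 0 was set against 3 UMIs. Cell division and STAT3 target lists, like the 10 genes and all other lists, were chosen with earlier results of these data known. Named genes were the 10 genes, the relay and ligand genes listed in the report, list genes past the fold, and the 3 genes most correlated with each member. Of the genes this rule names, 1 is not reported here. The alternatives were no upper limits, means over cells, thinning to 1500 UMIs, removal of the 6% of barcodes with the highest doublet scores, leaving out the highest cell, a fixed class mix, another scaling, 10 UMIs as the minimum, a 2-fold call and resolution 0.7. Scripts (Python 3.11.15, numpy 2.4.6, scipy 1.17.1, pandas 2.3.3, igraph 0.11.9) were tested on simulated data.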

Additional observations from a re-analysis of the deposited data

Results flagged for a closer look

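Barcodes above the upper limits of 5500 genes or 30000 UMIs entered none of the comparisons except the alternative with no upper limits. Among them 2 of 10 genes of the family were past 1.5-fold in the diet experiment, beside 8.83% of 19127 genes, and 1 of 8 in the surgery experiment, beside 6.54% of 12929 genes. In the diet experiment Il6 stood at 11.9 CPM in SAR131675 and 6.47 CPM in control (log2 ratio 0.88) and Il11ra1 at 55.4 against 36.5 CPM (0.60), over 6221 and 4400 barcodes. In the surgery experiment Il11 reached 5.76 CPM after LNR against 2.51 CPM in the sham library (1.20), from 132 and 57 UMIs over 523 and 513 barcodes.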

How the results depend on the processing

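In the diet experiment the count of genes past the fold was 1 (Il6, log2 ratio 0.59) and became 0 with means over cells (0.57), with thinning to 1500 UMIs (0.54), with doublets removed (0.57), with a 2-fold call and, as an alternative chosen after seeing the data, without cells of 10 or more UMIs of the gene (0.11). It stayed at 1 with no upper limits (0.68), the highest cell left out (0.60), a fixed class mix (0.69), scaling without mitochondrial, ribosomal and keratin genes (0.60) and a minimum of 10 UMIs. In the surgery experiment the count was 0 and became 1 with the highest cell left out (Il11, 0.87) and, chosen after seeing the data, without cells of 10 or more UMIs (Osm, 0.63). Leaving out clusters in which 1 library held over 90% of the cells, also chosen after seeing the data, moved neither count. Classes were ranked by the mean of both libraries of an experiment. The leading class was the same for 14 of 20 gene and experiment pairs at resolution 0.7, for 16 with means over cells and for 18 with doublets removed, and for 20 with no upper limits, with thinning, with the highest cell left out and without clusters mostly of 1 library, the only other settings under which classes were ranked. At resolution 0.7 Il6 was led by mixed mural cells in diet and smooth muscle-like cells in surgery, Il11 by nail or papilla mesenchyme, Lif by T or NK-like cells, Il11ra1 by adventitial fibroblast-like cells and Osmr by blood endothelial-like cells in diet. With means over cells, Il11 was led by chondrocyte-like and Il6ra by Langerhans-like cells in diet. In surgery that setting gave Lifr to osteoblast-like and Osmr to mixed mural cells. With doublets removed, Il11 was led by chondrocyte-like cells in diet and Socs3 by tendon-like cells in surgery. Within compartments, leaving out the highest cell, chosen after seeing the data, ended the diet call of Il11 in mesenchymal cells (0.60 to 0.45) and added a surgery call there (0.24 to 0.81). Levels of a class also moved with the setting. With doublets removed, Osm in neutrophil-like cells stood at 443, 771, 277 and 257 CPM in SAR131675, control, LNR and sham. With means over cells it stood at 521, 684, 438 and 382 CPM. Il6 in the mixed mural class stood at 506 and 548 CPM in LNR and sham with doublets removed. Il11ra1 in fibroblast-like cells of the surgery libraries moved less, to 679 and 693 CPM. The causes of these changes were not tested. No paired analysis was possible because each condition had 1 library. Il11, Lif and Osm had the fewest UMIs of the 10 genes, 255 to 720 per library.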
